A study of Drosophila melanogaster with 2 samples.

Results

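MBD-R2 peaks were examined at 10 Drosophila melanogaster genes whose products act in the egg and the early embryo: osk, nanos, stau, exu, swa, pum, brat, smg, zld and grh. They were taken by symbol, as maternal determinants and zygotic activation factors, out of 13968 protein-coding genes of the annotation, by a rule that uses no peak value. For each gene, every peak was taken that overlapped the gene or the 2 kb on either side of it. The samples were whole embryos aged 0 to 24 h from 1 transgenic line carrying MBD-R2 fused to eGFP, and the precipitation used an antibody against GFP. The labels give 1 group with 2 biological replicates, no untagged or treated group, and MBD-R2 as the target in the antibody field. Embryos of every age in that range and all their cell types were pooled, so a peak cannot be assigned to a stage or a tissue. With 1 group there was no condition to compare, and the values below are descriptions without a test.

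An insect egg is loaded by the mother with mRNAs and proteins that run the first nuclear divisions before the embryo's own genome is transcribed. The germ plasm and localisation genes place these mRNAs in the egg, RNA-binding repressors keep them silent and later help to remove them, and zygotic activators open the genome for transcription. MBD-R2 belongs to the NSL complex, named for its non-specific lethal mutants, in which the acetyltransferase MOF modifies histones at promoters of broadly expressed genes. Maternal mRNAs are made in the nurse cells of the ovary, a tissue that embryos do not contain.

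The peaks came from 4 lists, each thresholded at an irreproducible discovery rate (IDR, a measure of how consistently a peak ranks between compared sets) of at most 0.01. The main list held 7544 peaks and the conservative list 5704, both made from the 2 replicates, while replicate 1 alone gave 4113 peaks and replicate 2 alone 7542. The signal value of a peak is the number given to it by the authors' peak caller, on an unstated scale; its median was 118 in the main list, 149 in the conservative list, 68.6 for replicate 1 and 77.7 for replicate 2. A peak at the listed genes that stood in both the main and the conservative list had the same signal value in each. Signals of different lists are not on a common scale, and the number of reads behind a peak is unknown here.

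Of the 10 genes, 9 had at least 1 main-list peak within the gene or 2 kb of it, and zld had none. The same held for 59.0% of protein-coding genes. The conservative list gave 9 of 10 (53.7% of protein-coding genes), replicate 1 gave 8 of 10 (47.0%), with swa the further gene without a peak, and replicate 2 gave 9 of 10 (58.5%). By gene length, all 4 listed genes of at most 5 kb had a main-list peak (55.1% of such genes). So did 2 of 3 between 5 and 20 kb (71.7%) and 3 of 3 over 20 kb (67.6%).

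A peak near a gene was often not at that gene's own start. In the main list 7 genes had a summit, the position of highest enrichment in a peak, at most 500 bp from one of their transcription start sites (TSSs), against 44.0% of protein-coding genes. The 7 were nanos, stau, exu, swa, brat, smg and grh, and the remaining 3 were osk, pum and zld. The conservative list gave the same 7 (39.7% of protein-coding genes), and each replicate's list gave those without swa, which is 6 (33.2% for replicate 1 and 43.5% for replicate 2). When a summit was counted only for the gene with the nearest TSS, 4 of the 10 genes were left (35.4% of protein-coding genes), namely stau, brat, smg and grh. For grh that count rested on a weak summit of signal 14.6 that overlapped a stronger peak. For smg it rested on an intronic peak of 119.6 at inner starts, since the stronger peak of 275 was nearer to CG5087. Of the 26 main-list peaks found by the rule, 15 had a TSS of any gene within 500 bp, against 76.2% of all main-list peaks. For 10 of these 15 the nearest TSS belonged to a neighbour, as it did for 61.4% of the 14711 pairs formed in the same way over all protein-coding genes.

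**Figure D1:**
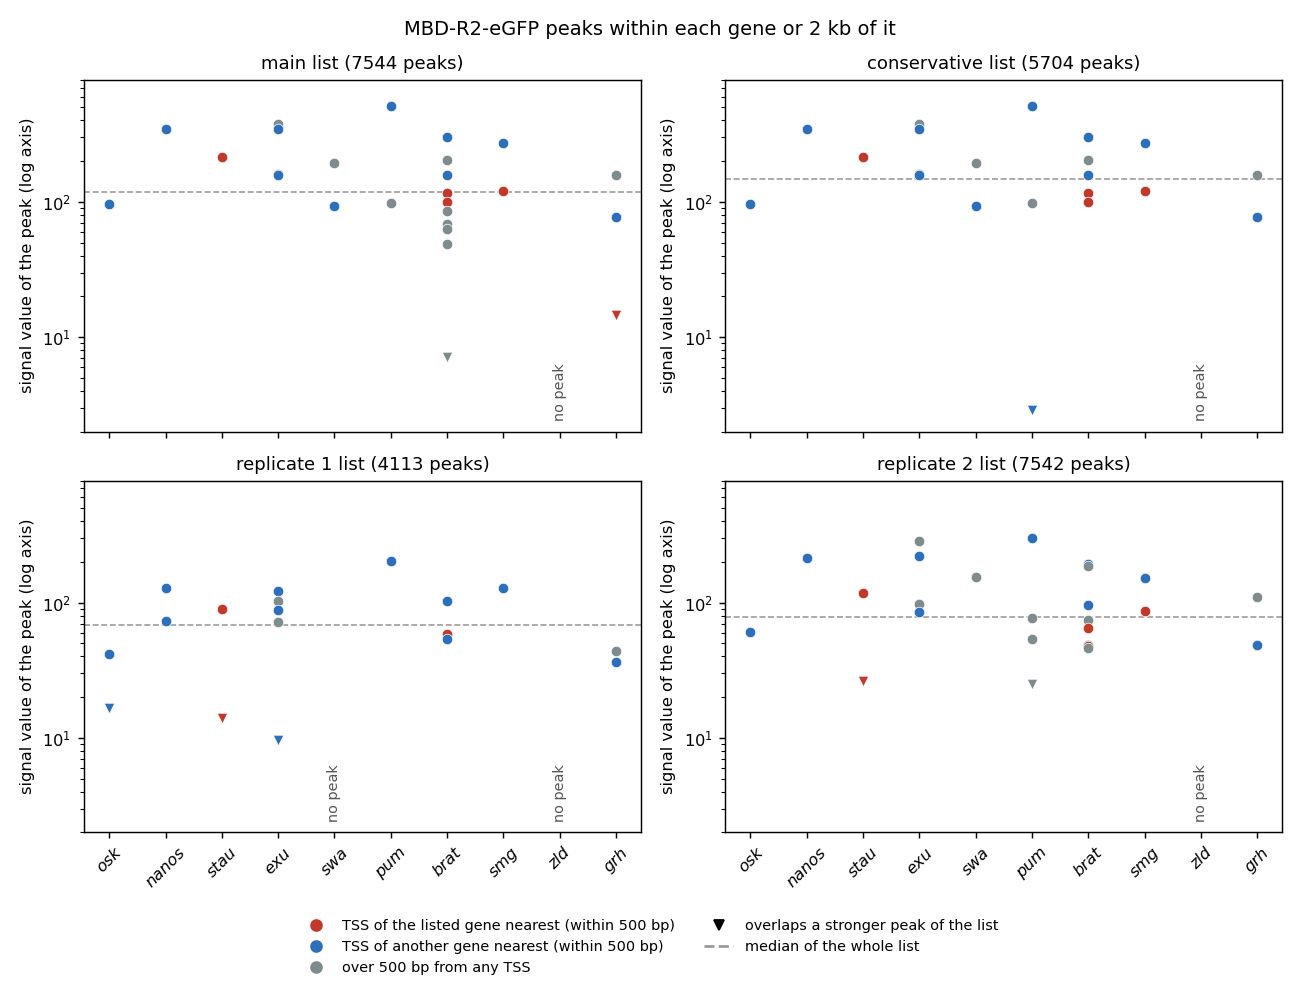
Signal value of every peak within each gene or 2 kb of it (log axis) in the 4 lists; circles are coloured by whose TSS is nearest, triangles mark peaks that overlap a stronger peak of the same list, and the dashed line is the median of the whole list. There is no peak for zld in any list and none for swa in that of replicate 1; brat has 10 peaks in the main list and 3 in that of replicate 1.

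Of the 7 genes with a main-list promoter peak, 6 shared their promoter region with a gene on the other strand. This split was chosen after the values were seen. By the 1 kb rule below, 3612 of the 6151 protein-coding genes with a main-list promoter peak did so. In 6 of the 10 a protein-coding gene on the opposite strand started at most 1 kb upstream of the 5′-most TSS: galla-1 at 121 bp from exu, CG5087 at 195 bp from smg, CG11779 at 221 bp from nanos, Marf at 241 bp from swa, Polr1D at 333 bp from brat and Spn55B at 568 bp from stau. That arrangement was found at 4913 of the 13968 protein-coding genes. All 6 listed genes had a main-list summit within 500 bp of their TSS, and 73.5% of the 4913 did. Of the other 4 genes, grh had such a summit and osk, pum and zld did not, while 28.0% of the 9055 protein-coding genes without that arrangement had one. In these shared regions the summit is within reach of both starts, and a peak list cannot tell for which gene the protein was bound.

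Sequences are printed for shared regions between opposite-strand starts, for part of a brat intron and for the stretch upstream of zld. Each is given 5′ to 3′ from the RefSeq copy of the dm6 genome, and capitals mark matches on either strand to TATCGATA (the DNA replication-related element, DRE) or GGTCACAC (the core of the M1BP site), the motifs searched below that fall in them. Between a start of CG11779 and that of nanos lie 220 bp (chr3R:19157018-19157237, plus strand), which hold 1 DRE; the summit itself lies outside them, at the next CG11779 start. Between swa and Marf lie 240 bp (chrX:6365709-6365948, plus strand) with 1 M1BP core, read as GTGTGACC, and the summit at base 191. Between smg and CG5087 lie 194 bp (chr3L:8997990-8998183, plus strand) with the summit at base 139. The 104 bp between beag and Ada (chr3R:9065079-9065182, plus strand) carry the strongest peak near any of the 10 genes, beyond the 3′ end of pum, with the summit at base 24. The brat intron (chr2L:19165036-19165236, plus strand) is centred on the strongest summit inside any of the 10 genes, and the 200 bp upstream of the 5′-most zld TSS (chrX:19783549-19783748, minus strand) had no thresholded peak. Their GC content is 29.1% for nanos, 29.2% for swa, 47.9% for smg, 29.8% for beag and Ada, 28.9% for the brat intron and 64.5% upstream of zld.
nanos-CG11779: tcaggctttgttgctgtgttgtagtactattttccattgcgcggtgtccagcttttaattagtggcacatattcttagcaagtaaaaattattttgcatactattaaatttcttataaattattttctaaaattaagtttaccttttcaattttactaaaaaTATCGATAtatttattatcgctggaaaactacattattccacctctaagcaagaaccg
swa-Marf: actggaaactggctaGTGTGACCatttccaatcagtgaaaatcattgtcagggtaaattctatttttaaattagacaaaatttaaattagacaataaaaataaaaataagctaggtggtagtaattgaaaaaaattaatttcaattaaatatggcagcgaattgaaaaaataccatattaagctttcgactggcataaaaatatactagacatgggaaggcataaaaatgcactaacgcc
smg-CG5087: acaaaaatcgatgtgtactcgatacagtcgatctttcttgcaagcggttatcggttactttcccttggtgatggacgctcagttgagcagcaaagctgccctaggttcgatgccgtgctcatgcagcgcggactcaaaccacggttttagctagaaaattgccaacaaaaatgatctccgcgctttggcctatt
beag-Ada: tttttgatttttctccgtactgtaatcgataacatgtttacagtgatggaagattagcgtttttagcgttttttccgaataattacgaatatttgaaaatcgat
brat intron: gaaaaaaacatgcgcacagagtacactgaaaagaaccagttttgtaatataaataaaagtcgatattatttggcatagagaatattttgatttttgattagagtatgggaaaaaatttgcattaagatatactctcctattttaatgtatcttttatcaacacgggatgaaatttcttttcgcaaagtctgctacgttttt
zld upstream: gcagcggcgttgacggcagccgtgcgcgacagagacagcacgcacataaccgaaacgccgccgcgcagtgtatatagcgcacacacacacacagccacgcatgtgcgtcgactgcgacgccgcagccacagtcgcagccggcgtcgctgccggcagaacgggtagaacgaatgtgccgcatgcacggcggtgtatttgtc

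Oskar, the product of osk (FBgn0003015, chr3R:8935126-8938395, plus strand), nucleates the germ plasm at the posterior pole of the egg. Its one main-list peak, chr3R:8938449-8938888, lay beyond the 3′ end of the gene, with the summit 3543 bp downstream of the osk TSS and 55 bp upstream of the TSS of ScsbetaA, which encodes a subunit of succinyl-CoA synthetase. The signal was 96.4 in the main and conservative lists, 42.0 for replicate 1 and 60.2 for replicate 2, below the median of the list each time. Replicate 1 listed a second, overlapping peak of signal 16.6 with its summit 114 bp from an inner ScsbetaA TSS. Within osk itself the strongest summit of the unthresholded main ranking had a signal of 27.2 and an IDR of 0.4879, in a coding exon. No list therefore placed a peak at the start or in the body of osk, and the next main-list peaks upstream, of signal 88.0 and 10.5, lay 2894 and 2691 bp away at pyd, outside the 2 kb.

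Nanos, from nanos (FBgn0002962, chr3R:19157238-19160202, plus strand), is a translational repressor that specifies the posterior of the embryo and protects germ cells. Its peak, chr3R:19156634-19156961, was strong in every list, with a signal of 346 in the main and conservative lists, 129 for replicate 1 and 215 for replicate 2. The summit lay 405 bp upstream of the nanos TSS and 21 bp upstream of a TSS of CG11779, a gene on the opposite strand that overlaps nanos over 2641 bp. It ranked 507 of 7544 in the main list, and among the 6151 genes with a promoter peak its signal was at percentile 87.8. The assignment to nanos was set by the window, since at 250 bp in place of 500 bp nanos was without a promoter peak. A peak of 73.6 at the shared start of CG42359 and Nsun5, downstream of nanos, fell within 2 kb in the list of replicate 1, and its main-list counterpart, of signal 268, stood 2059 bp from the gene and so just outside. Inside nanos the strongest summit of the main ranking was intronic, with a signal of 40.9 and an IDR of 0.01821.

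Staufen, from stau (FBgn0003520, chr2R:18117896-18125779, minus strand), is an RNA-binding protein that carries osk and bcd mRNA to the poles of the egg. The main-list peak stood at the gene's own start, chr2R:18125758-18125986, with the summit 89 bp upstream of the 5′-most TSS, 1995 bp upstream of the internal TSS and 479 bp upstream of the Spn55B TSS. The signal was 215 in the main and conservative lists, 89.4 for replicate 1 and 118 for replicate 2, which is percentile 65.0 of genes with a promoter peak in the main list. Each replicate also listed a weak overlapping peak, of 13.9 and 26.5, with summits 278 and 273 bp upstream of the 5′-most stau TSS.

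Exuperantia, from exu (FBgn0000615, chr2R:20667427-20671083, minus strand), is needed in the ovary for bcd mRNA localisation. It had 4 main-list peaks, and each of them overlapped a peak in all 4 lists. At its 5′ end the summit of chr2R:20671059-20671406 lay 137 bp upstream of the 5′-most exu TSS, 459 and 729 bp upstream of the other exu TSSs and 16 bp downstream of a galla-1 TSS. That peak had a signal of 345 in the main list, 122 for replicate 1 and 222 for replicate 2. Replicate 1 also listed an overlapping peak of 9.72. The 3′ end faced another gene, Fem-1, and the strongest of the 4 peaks lay there: chr2R:20666449-20666714, with a signal of 378 in the main list, 102 for replicate 1 and 286 for replicate 2. Its summit was inside Fem-1, 733 bp from the Fem-1 TSS, and over 500 bp from any TSS. A weaker peak of 158 (87.9 for replicate 1 and 84.9 for replicate 2) sat 61 bp from the Fem-1 TSS. The last, of 160.2 (72.0 for replicate 1 and 97.4 for replicate 2), lay in the exu 3′ UTR at chr2R:20667905-20668344.

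Swallow, from swa (FBgn0003655, chrX:6363418-6365708, minus strand), is needed to keep bcd mRNA at the anterior of the egg. Its promoter call depended on combining the replicates. The stronger main-list peak, chrX:6366412-6366605 with a signal of 194, lay 808 bp upstream of swa and 567 bp inside Marf, the mitofusin gene, over 500 bp from any TSS. The second, chrX:6365679-6366118 with a signal of 92.4, had its summit 191 bp upstream of swa and 50 bp upstream of Marf. Both stood in the conservative list. Replicate 1 listed neither: its ranking held 38.2 at an IDR of 0.01031 for the first, just outside the threshold, and 30.6 at 0.07514 for the second. Replicate 2 listed the first with 155, while its ranking held the second with 51.8 at an IDR of 0.5512.

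**Figure D2:**
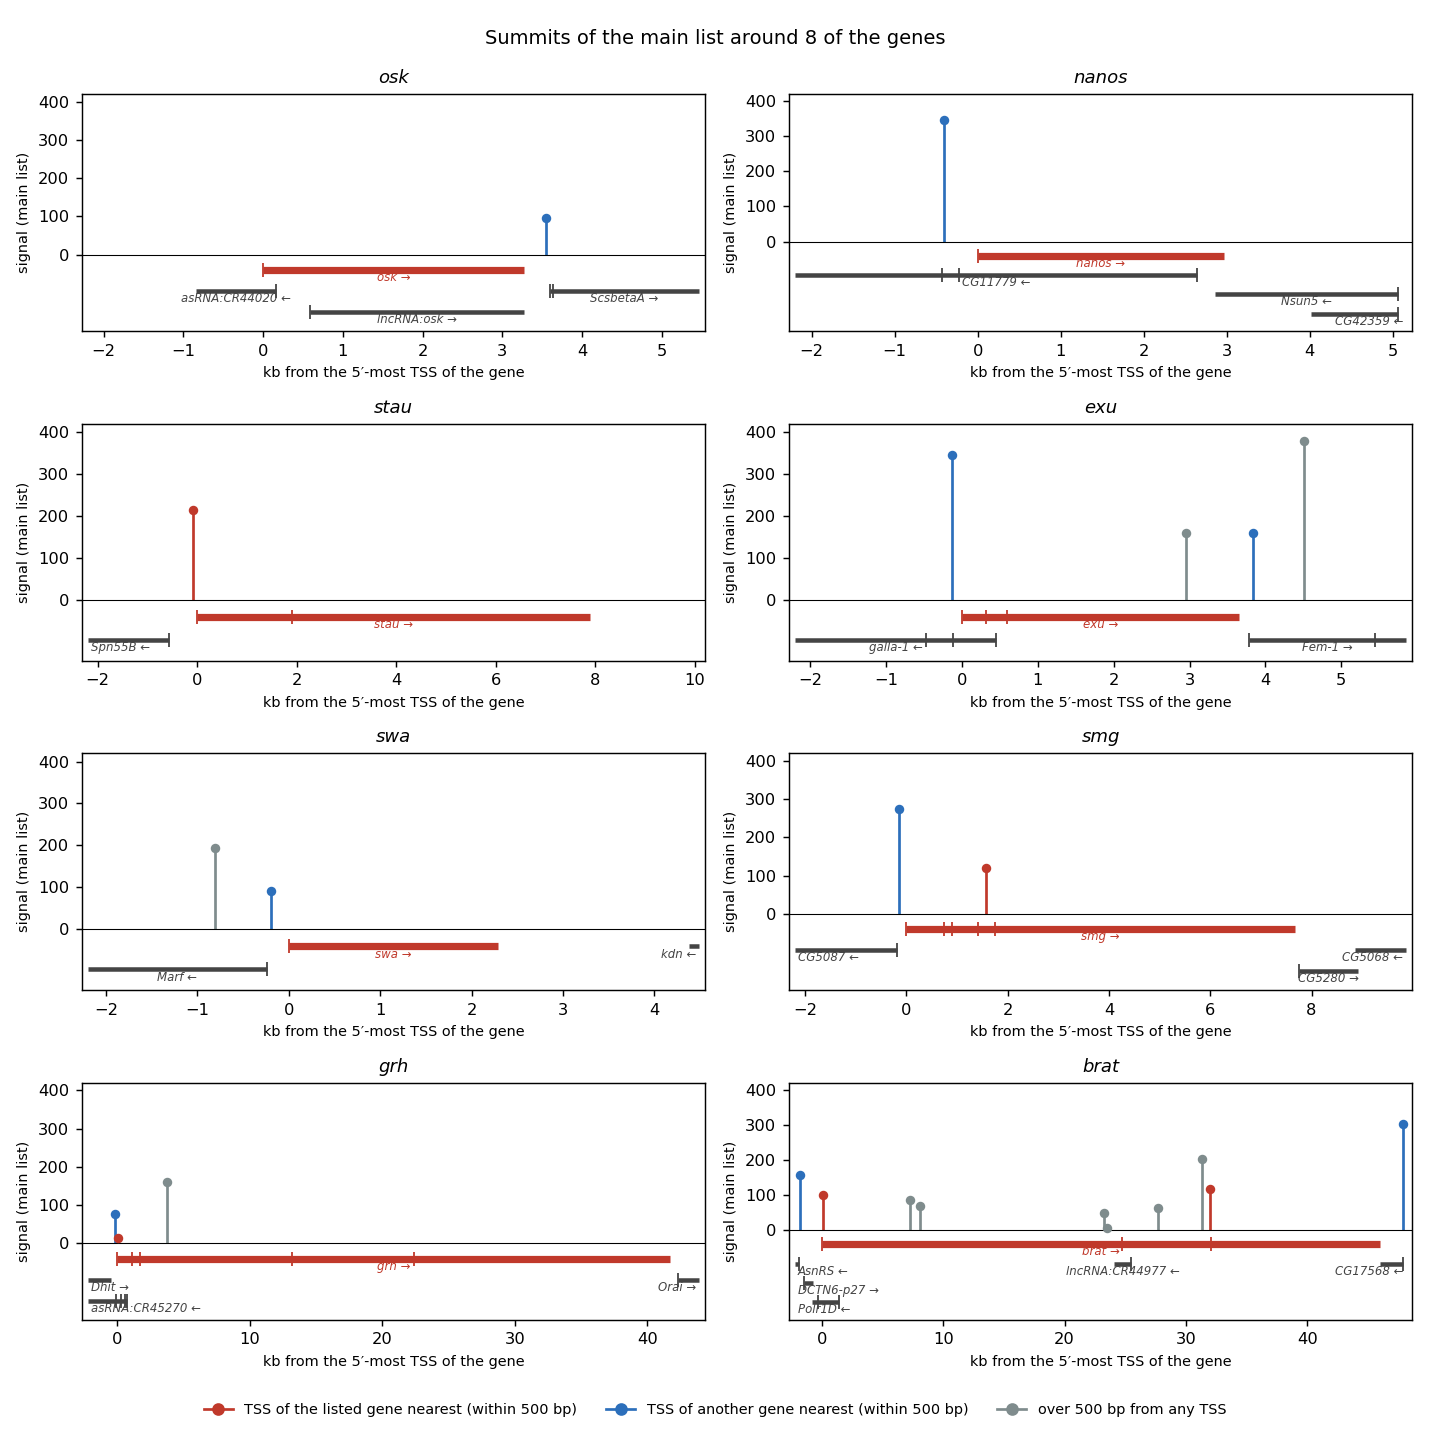
Main-list summits around 8 of the genes, with distance in kb from the gene's 5′-most TSS on the x axis (the gene reads left to right) and signal value on the y axis; bars below are genes, ticks their TSSs and arrows their direction relative to the listed gene. At nanos, exu, swa and smg the summit upstream of the gene lies nearer to the start of the opposite-strand neighbour, at stau it is nearest to stau, and at osk the summit is at the start of ScsbetaA.

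Pumilio, from pum (FBgn0003165, chr3R:9066343-9237682, minus strand), binds target mRNAs with Nanos to repress them. The gene spans 171340 bp with 4 TSSs, and the strongest peak assigned to it by the 2 kb rule, chr3R:9064906-9065255, was 1088 bp beyond its 3′ end in the promoter shared by beag and Ada. That summit lay 24 bp from the beag TSS, 81 bp from the Ada TSS and 92848 bp from the nearest pum TSS. Its signal was 508 in the main list, 202 for replicate 1 and 299 for replicate 2, rank 139 of 7544. In the gene itself the main list held 1 peak, chr3R:9227205-9227644, intronic and 585 bp upstream of an internal pum TSS. It had a signal of 97.3 in the main list and 76.9 for replicate 2, and replicate 1 did not list it, with 29.9 at an IDR of 0.1035 in its ranking. The conservative list added an overlapping peak of 2.88 with its summit 477 bp from lncRNA:CR45196, and replicate 2 added intronic peaks of 53.9 and 24.9. At the 5′-most pum TSS the main ranking held 52.1 at an IDR of 0.0165, 64 bp upstream, which missed the threshold. The gene would count as bound at a TSS with a window of 1000 bp.

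Brain tumor, the product of brat (FBgn0010300, chr2L:19133816-19179758, plus strand), is a translational repressor that works with Pumilio and Nanos. The gene, 45943 bp long with 3 TSSs, had 10 of the 26 main-list peaks, 5 conservative peaks, 3 for replicate 1 and 8 for replicate 2. At its 5′-most TSS chr2L:19133842-19133980 had a signal of 99.6, with the summit 88 bp downstream in the 5′ UTR and 421 bp upstream of a TSS of Polr1D, which encodes an RNA polymerase subunit. Replicate 1 gave 58.5 there and replicate 2 47.6, the one peak at a listed gene's own start that was stronger in replicate 1. At the internal TSS at position 19165867, a peak of 117 in the main list had its summit 104 bp upstream; replicate 2 listed it with 64.9 and replicate 1 did not, with 54.5 at an IDR of 0.7315 in its ranking.

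The other brat peaks lay away from its starts. The promoters of neighbours within 2 kb gave 301 at CG17568 (103 for replicate 1 and 194 for replicate 2) and 158 at AsnRS, the asparaginyl-tRNA synthetase gene (54.1 and 96.9), which is also 317 bp from the start of DCTN6-p27. Inside introns there were 6 summits over 500 bp from any TSS. The strongest, chr2L:19165054-19165256, had a signal of 203 and lay 731 bp upstream of the internal TSS at 19165867 and 6596 bp downstream of the TSS at 19158540. Replicate 2 listed it with 188, but replicate 1 did not, with 31.7 at an IDR of 0.0744. The other 5 had signals of 86.2, 68.0, 63.4, 49.1 and 7.10, the last overlapping the one before. Replicate 2 listed the first of these with 74.2 and the second with 46.2, and replicate 1 listed none of the 6. The conservative list held the peak of 203 and none of the other 5. The main list held as many summits or more in the gene and over 500 bp from any TSS in 14 of 13968 protein-coding genes. Summits were counted intronic or not, and the 14, brat included, were all among the 1020 genes over 20 kb. Overlapping peaks were counted for every gene, so the 6 of brat include the peak of 7.10. Replicate 2 alone also listed a peak of 48.6 at a Polr1D TSS inside brat.

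Smaug, from smg (FBgn0016070, chr3L:8990317-8997989, minus strand), represses nanos mRNA and recruits the CCR4-NOT deadenylase to clear maternal mRNAs. The peak at its 5′ end, chr3L:8998074-8998285, lay in the 194 bp printed above, with the summit 139 bp upstream of the 5′-most smg TSS and 56 bp upstream of CG5087. Its signal was 275 in the main and conservative lists, 128 for replicate 1 and 151 for replicate 2, at percentile 77.7 of genes with a promoter peak in the main list. A second peak, chr3L:8996191-8996630 with a signal of 119.6, lay in an intron between internal starts, 160 bp downstream of one and 162 bp upstream of the next, and 1578 bp downstream of the 5′-most. Replicate 2 listed it with 86.3, and replicate 1 did not, with 30.6 at an IDR of 0.139. The gene thus had a peak at its outer start in all 4 lists and one at inner starts in 3.

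Zelda, from zld (FBgn0259789, chrX:19766465-19783548, minus strand), is the pioneer transcription factor that primes the early genome for activation. It was the one listed gene without a peak in any of the 4 lists. The strongest summit of the main ranking within 2 kb had a signal of 54.2, 13 bp upstream of the 5′-most TSS, at an IDR of 0.04287, and the conservative ranking gave the same summit an IDR of 0.733. Replicate 2 had 36.0 there at an IDR of 0.02961, 37 bp upstream, and replicate 1 had no ranked summit within 500 bp of a zld TSS, its strongest in the region being 19.5 at an IDR of 0.4714. The nearest main-list peak, 117 at the start of CG12702, stood 3923 bp from the gene. These values place the zld start below the threshold and do not show that MBD-R2 was absent from it.

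Grainyhead, from grh (FBgn0259211, chr2R:17801132-17842820, plus strand), is a transcription factor of the epidermis and other epithelia whose sites are also used early. The stronger of its peaks was intronic, chr2R:17804696-17805135, with the summit 2049 bp downstream of the nearest of 5 TSSs and 3784 bp downstream of the 5′-most. That peak had a signal of 159 in the main list, 44.0 for replicate 1 and 110.3 for replicate 2, and it was in all 4 lists. At the 5′-most TSS, chr2R:17800787-17801226 had 77.2 in the main list, 36.4 for replicate 1 and 48.2 for replicate 2, with the summit 125 bp upstream of grh and 54 bp from asRNA:CR45270, an antisense RNA. An overlapping peak of 14.6, with the summit 76 bp downstream of the TSS, was in the main list alone. The grh promoter peak was the weakest of the 7, at percentile 9.80 of genes with a promoter peak in the main list.

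Among all genes with a promoter peak in the main list the quartiles of signal were 113.2, 170.3 and 259.8. The signals of nanos, exu and smg stood above the upper quartile and stau between the median and the upper quartile. That of brat, at 117 and percentile 26.8, was just above the lower quartile, and swa (percentile 15.6) and grh were below it. The order was similar in each replicate, where nanos, exu and smg were between percentile 72.1 and 89.9, stau at 59.7 and 56.8, brat at 26.3 and 19.0 and grh at 2.33 and 7.43. The brat values come from different starts, the 5′-most TSS in replicate 1 and the internal TSS at 19165867 in the main list and replicate 2. At the top, nanos and exu had 346 and 345 in the main list, and nanos was higher in replicate 1 and exu in replicate 2. The widest gap in percentile in the main list was between stau and brat.

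The replicates differed mostly at peaks away from promoters. Of the 26 main-list peaks at the listed genes, 15 overlapped a peak of both replicates' own lists, against 53.3% of all main-list peaks. The 15 comprised 12 of the 15 peaks with a TSS within 500 bp (64.4% of all such main-list peaks) and 3 of the 11 without (18.1% of all main-list peaks without); those 3 were the intronic grh peak and the exu peaks in its 3′ UTR and in Fem-1. Where both rankings had a peak, the ratio of the replicate 2 to the replicate 1 signal had a median of 1.43 over the 15 promoter peaks (lowest 0.815, highest 2.82) and 2.66 over 8 other peaks (1.35 to 5.94). Over all main-list peaks the medians were 1.65 near TSSs and 2.27 elsewhere. The largest ratios were 5.94 at the strongest brat intron peak and 4.06 at the swa peak inside Marf. The overlapping peaks at the grh start share their replicate values and count as separate peaks here. No depth is stated for the libraries, and its part in these ratios was not tested.

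**Figure D3:**
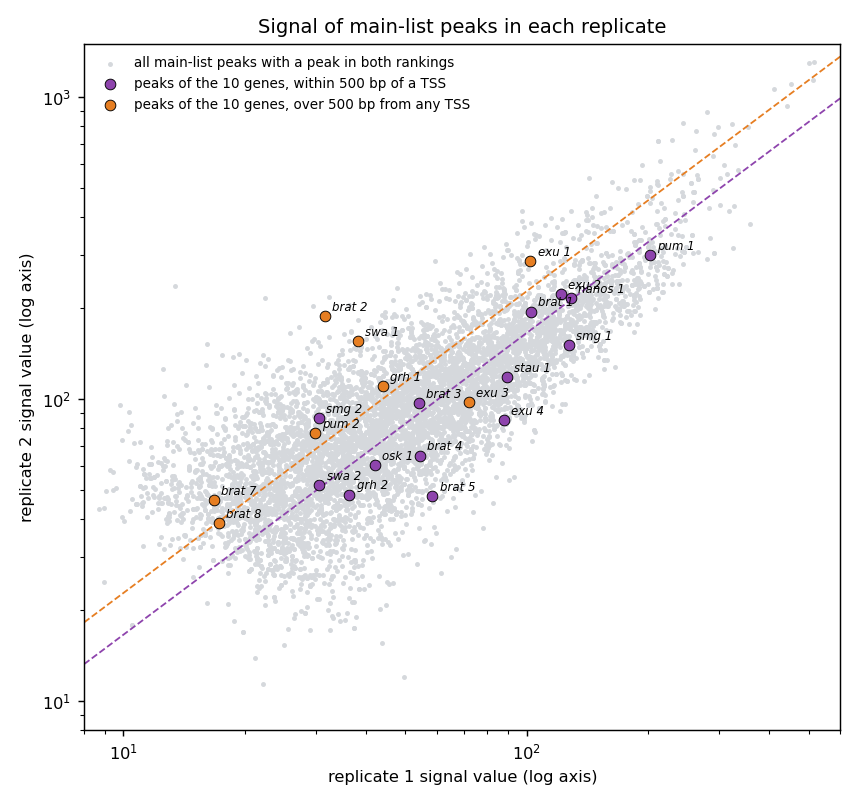
Signal of main-list peaks in the ranking of replicate 1 (x) and replicate 2 (y), both on log axes. Grey points are all main-list peaks that overlap a peak of both rankings. Coloured points are those of the listed genes, numbered by main-list signal within each gene. Listed-gene peaks that lack a peak in either ranking or overlap a stronger main-list peak are not drawn. Dashed lines are the median ratios over all peaks of the same class (1.65 near a TSS, 2.27 elsewhere). The brat 2 and swa 1 peaks lie farthest above the lines, at ratios of 5.94 and 4.06.

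Short motifs were searched within 150 bp of each of the 26 summits and from 250 bp upstream to 50 bp downstream of each 5′-most TSS, on both strands. The DRE, TATCGATA, was in 3 of 26 windows, at both the exu promoter and the exu 3′ UTR peak and at the brat 5′ peak, and in 10.9% of all main-list windows. It was in the promoters of nanos, exu and brat, and in 9.36% of all promoters. The M1BP core GGTCACAC was in 2 windows, those at Fem-1 and CG17568 (10.2% of all windows), and in the promoters of swa and pum (7.70% of promoters). The GAGA string GAGAGA was in 7 windows (13.2% of all windows) and, among promoters, in that of grh alone (12.3% of promoters). Of the 7, 5 were at peaks of exu, swa, pum, brat and grh over 500 bp from any TSS. The brat window was that of the overlapping peak of 7.10, and no other brat window held the string. No share was computed over all windows that far from a TSS. The other 2 were at the grh promoter, where overlapping windows share 1 match.

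Strings bound by the zygotic activators themselves were searched in the same windows. The Zelda string CAGGTAG was in 1 window, at nanos, 145 bp from the summit, and in 1.60% of all windows, and in no promoter of the 10 genes (1.64% of promoters). The Grainyhead string AACCGGTT was in no window (0.610% of all windows) and in no promoter of the 10 (0.752%). Of the 26 windows, 13 held none of the 5 motifs (66.6% of all main-list windows held none), among them those of osk, stau, both smg peaks, the beag and Ada promoter and the strongest brat intron peak. A match or its lack describes only these letters in this window.

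To set the 10 genes beside others of the same processes, 3 lists of 77 genes were used, of which 75 matched the annotation by symbol and houki and souji did not. In the main list 46 of the 75 (61.3%) had a summit within 500 bp of a TSS, against 44.0% of protein-coding genes. The germ plasm and mRNA localisation list had 21 of 29. For 16 of the 29 no other gene's TSS was nearer to the summit (35.4% of protein-coding genes). Its strongest were orb, a translational regulator, with 622 (257 for replicate 1 and 351 for replicate 2), mago, an exon junction protein, with 444 (184 and 261), and tral with 302 (83.2 and 192). All 3 of these peaks were nearer to the TSS of a neighbour, Cdc16, Tmtc3 and sti. Among the 8 without a promoter peak, the first 5 in alphabetical order were aub, BicC, bru1, cup and hb.

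Genes of egg activation and of the clearance of maternal mRNA had a promoter peak in 15 of 18 cases (83.3%, against 44.0% of protein-coding genes). For 10 of the 18 no other gene's TSS was nearer to the summit (35.4% of protein-coding genes). The strongest was muskelin with 483 (183 for replicate 1 and 296 for replicate 2), followed by Not11, a CCR4-NOT subunit, with 378 (168 and 199), and by sra, a calcineurin regulator needed at egg activation, with 348 (155 and 191), with Bin1 nearer in the last case. Other genes of the CCR4-NOT deadenylase, which Smaug recruits, were also among the 15: Pop2, Not1, Not3, Not10, Rga and twin. The Pop2 summit was nearer to CG6928 and the Rga summit nearer to Atu. Replicate 1 listed no promoter peak for Not1, Not3 or twin. The 3 without were cort, gnu and png, of which gnu and png belong to the kinase complex that starts translation in the egg, while its other subunit gene, plu, had 138 at a summit nearer to RpS18.

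Zygotic activation and early zygotic genes, with the genes that slow the nuclear cycles, had a promoter peak in 10 of 28 cases in the main list (35.7%, against 44.0% of protein-coding genes) and in 12 of 28 for replicate 2 (42.9%, against 43.5%). For 8 of the 28 no other gene's TSS was nearer to the main-list summit (35.4% of protein-coding genes). The 10 were led by mei-41, the ATR kinase, with 377 (143 for replicate 1 and 230 for replicate 2) at a summit nearer to TH1. Sry-alpha followed with 334 (148 and 179), shared with Sry-beta, and Trl, the GAGA factor, with 193 (38.4 and 153). Clamp, Dref, Stat92E and nej, which encode chromatin or transcription factors, also had a peak. That of nej was in neither the conservative list nor that of replicate 1, and that of Stat92E was not in that of replicate 1. Of the same list, opa and Pits had no main-list promoter peak, though the list of replicate 2 held one of 20.6 at Pits. The 18 without one included, in alphabetical order, bnk, dpp, eve, ftz and grp. For grp alone among these 5, other lists held a promoter peak: the conservative list gave it 104.5, replicate 1 44.3 and replicate 2 58.9. For replicate 1 the 3 lists had 14 of 29, 9 of 18 and 7 of 28, against 33.2% of protein-coding genes. For replicate 2 the first 2 lists had 19 of 29 (65.5%) and 13 of 18 (72.2%), against 43.5%. How these shares differ was not tested.

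**Figure D4:**
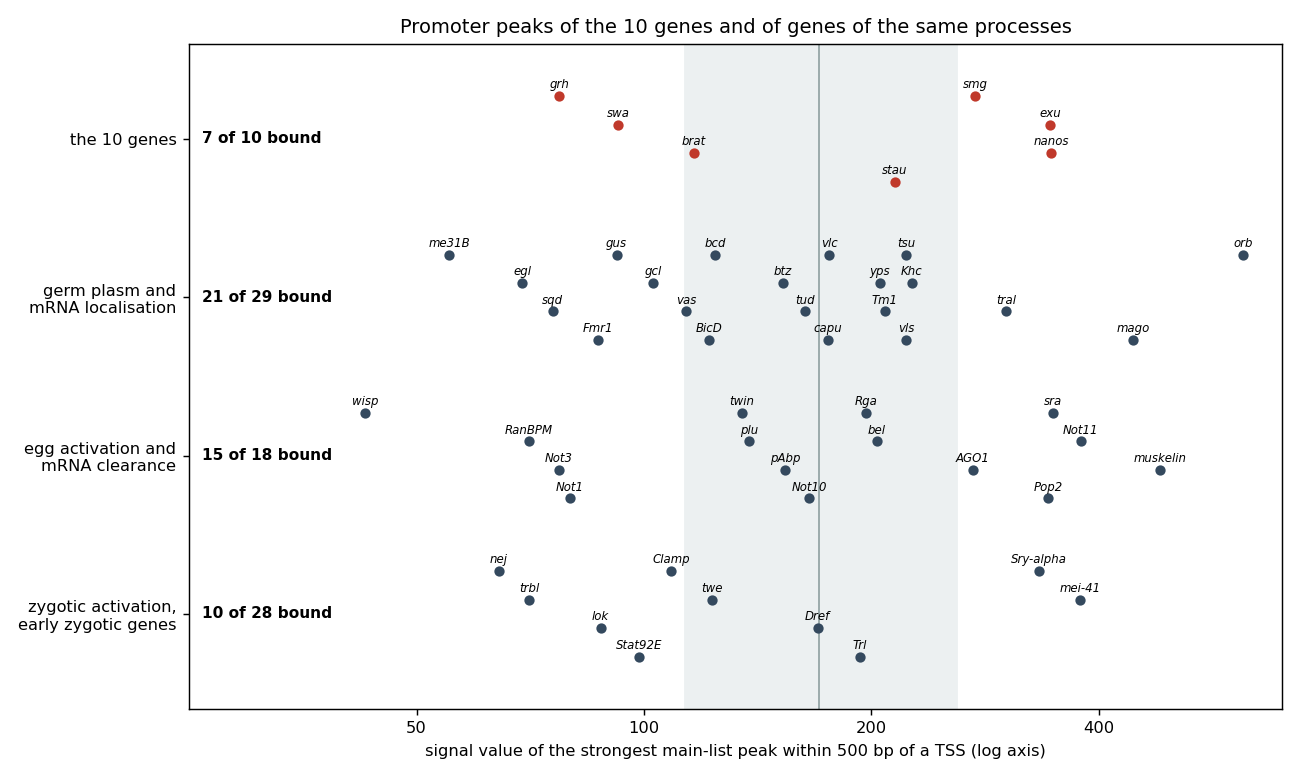
Signal of the strongest main-list peak within 500 bp of a TSS (log axis) for the 10 genes and for 3 lists of genes of the same processes; vertical position separates the lists and spreads the labels, and the shaded band and line are the quartiles and median of all 6151 genes with such a peak (113.2, 170.3 and 259.8). Genes without a peak are counted at the left: 7 of 10, 21 of 29, 15 of 18 and 10 of 28 had one.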

How the data were processed

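The deposited files are peak lists of 2 biological replicates on dm6, per the labels. Peaks were called by the authors. The aligner, the peak caller and the depth were not given in the sources used here, and control libraries named in the labels were not analysed here. Per the labels, chromatin was sonicated to 200 to 800 bp. The deposited signal value of a peak is the authors' own, on an unstated scale. The deposited score is the authors' rescaled IDR, at least 830 in every thresholded list, and the rankings carry the −log10 IDR as deposited. Genes and TSSs came from Ensembl release 115, and 1 main-list peak off the 7 chromosome arms was left out of window counts. Overlaps needed at least 1 bp. Scripts ran under Python 3.11.15. Summit offsets, the 500 bp and 2 kb windows and the nearest TSS were checked on simulated peaks, and the other steps were not checked in this way.

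The 10 genes, the lists of 77 genes and the motifs were chosen with earlier results of these data known, and no test was made. Named genes are the 10, every gene with a TSS within 500 bp of their summits or nearest to one, and per list the 3 of highest signal and up to 5 without a peak in alphabetical order. The split by opposite-strand neighbours, the peaks beyond 2 kb, the other CCR4-NOT genes, plu, Clamp, Dref, Stat92E, nej, opa and Pits were chosen after their values were seen. Alternatives were other lists, a stricter IDR, and other flanks, windows, TSSs and overlaps.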

Additional observations from a re-analysis of the deposited data

How the results depend on the processing

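Of 44 alternative values, 32 stayed within 1.5 times the reported count, or within 3.43 (the SD between replicates) of the reported percentile, and 12 did not. The count of listed genes with a peak within the gene or 2 kb was 9 and ranged from 7 (no flank) to 10 (a flank of 5 kb). The count with a promoter peak was 7 and was 4 when a summit counted only for the nearest TSS. Leaving out a replicate gave 6 with either replicate, without swa in both cases. For the 75 further genes, the count of 46 was 30 without replicate 2 and 44 without replicate 1. The median percentile of promoter signal, 65.0, was 61.1 in the conservative list, 69.3 without replicate 2 and 64.5 without replicate 1, 72.4 at an IDR of at most 0.001, 45.4 with a window of 250 bp and 34.3 with the nearest TSS only. The count of peaks in both replicates' lists, 15, was 8 when 50% of both peaks had to overlap and 23 in the rankings. The M1BP core fell from 2 windows to 0 on the sense strand alone, and within 100 bp of the summit the Zelda string fell from 1 window to 0 and GAGA from 7 to 4. The Grainyhead count of 0 could not change with a narrower window. Reading 1 strand could not change the Grainyhead or DRE count, as both strings equal their reverse complements. These settings are among the 32. No paired analysis was possible because there is 1 group. Peak lists without read counts or depth allow no interval or floor.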
